A study of Mus musculus with 2 samples.

Results

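The mesothelial nuclei described here were 876 of 39516 nuclei from the ascending aorta and aortic arch of mice, chosen by their counts of 6 genes. Tissue came from mice carrying Wnt1-Cre and the Rosa26-mTmG reporter and was pooled by sex, which gave 1 Female and 1 Male library. The labels give 6 mice and a division of each pool into 2 technical replicates, but the barcodes do not separate these. Both libraries carried the same alleles, with no other treatment and no age in the labels. In such mice, the Cre is made by neural crest cells of the embryo, and the reporter gives membrane GFP in cells that have had Cre and in their descendants, and membrane tdTomato in all others. Nuclei were released in a lysis buffer, barcoded in droplets and sequenced, so each value is a count of unique molecular identifiers (UMIs), one for each captured RNA molecule. The deposited barcodes numbered 18872 Female and 20659 Male and held 79294181 and 77989549 UMIs, with medians of 3546 and 3104 UMIs per nucleus.

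Mesothelium is the flat epithelium that lines the pericardial, pleural and peritoneal cavities, and its sheet over the heart and the roots of the great vessels is the epicardium. Its cells keep keratins, junctions and an apical face with microvilli, yet they also express mesenchymal genes, and they secrete a lubricating fluid. Mesothelin (Msln), the uroplakins Upk3b and Upk1b, the transcription factor Wt1, the membrane mucin Muc16 and the leucine-rich repeat protein Lrrn4 are widely used to mark them.

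A nucleus with at least 300 detected genes was called mesothelial when Msln, Upk3b, Upk1b, Wt1, Muc16 and Lrrn4 together gave at least 3 UMIs from at least 2 of these genes. That sum also had to exceed the sum of the smooth muscle genes Myh11, Acta2 and Lmod1 and the sum of the endothelial genes Ptprb, Pecam1 and Cdh5. In the Female library 320 of 18863 nuclei met the rule, 1.70% (95% exact Clopper-Pearson interval 1.52 to 1.89), and in the Male library 556 of 20653, 2.69% (2.48 to 2.92). The intervals cover counting error only, and with 1 library per sex the difference, Female minus Male, of -0.996 percentage points has no replicate check. Member nuclei had medians of 3956 Female and 4084.5 Male UMIs, and their UMIs summed to 1528381 and 2605335.

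The 6 genes of the rule describe how the members were chosen and are no finding. Muc16 gave a UMI in 95.9% of Female and 93.7% of Male members, Upk3b in 90.3% and 86.2%, Upk1b in 84.7% and 84.5%, Msln in 82.5% and 83.3%, Wt1 in 81.9% and 77.9%, and Lrrn4 in 54.7% and 54.3%. The median sum was 21 UMIs in Female and 20 UMIs in Male members. All 6 genes were detected in 111 Female (34.7%) and 193 Male (34.7%) members, and 11 and 27 rested on 2 genes. Just inside the threshold, 5 Female and 9 Male members had a sum of exactly 3, with median depths of 1275 and 1047 UMIs. Just outside it, 3 Female and 7 Male nuclei had a sum of 2 over 2 genes (medians of 987 and 1248 UMIs). Another 26 Female and 87 Male nuclei reached the sum over 2 genes but not above their muscle or endothelial sum. These were deep nuclei (medians of 7724 and 6818 UMIs), and 88.5% and 86.2% of them had a UMI of Gpm6a, which the rule did not use.

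Genes outside the rule matched the label in most members and went against it in a few. Gpm6a, a neuronal-type membrane glycoprotein that is also a known mesothelial marker, lies at chromosome 8, 54954843 to 55060871 (GRCm38), and gave a UMI in 91.6% of Female and 91.4% of Male members. In fibroblast nuclei the shares were 4.86% and 5.34%, and in endothelial nuclei 11.8% and 9.20%. After each nucleus was thinned to 1000 UMIs, Gpm6a was still found in 80.5% and 77.1% of members and in 2.20% and 1.82% of fibroblasts. The plot of marker shares by class sets these beside the rule genes.

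**Figure D1:**
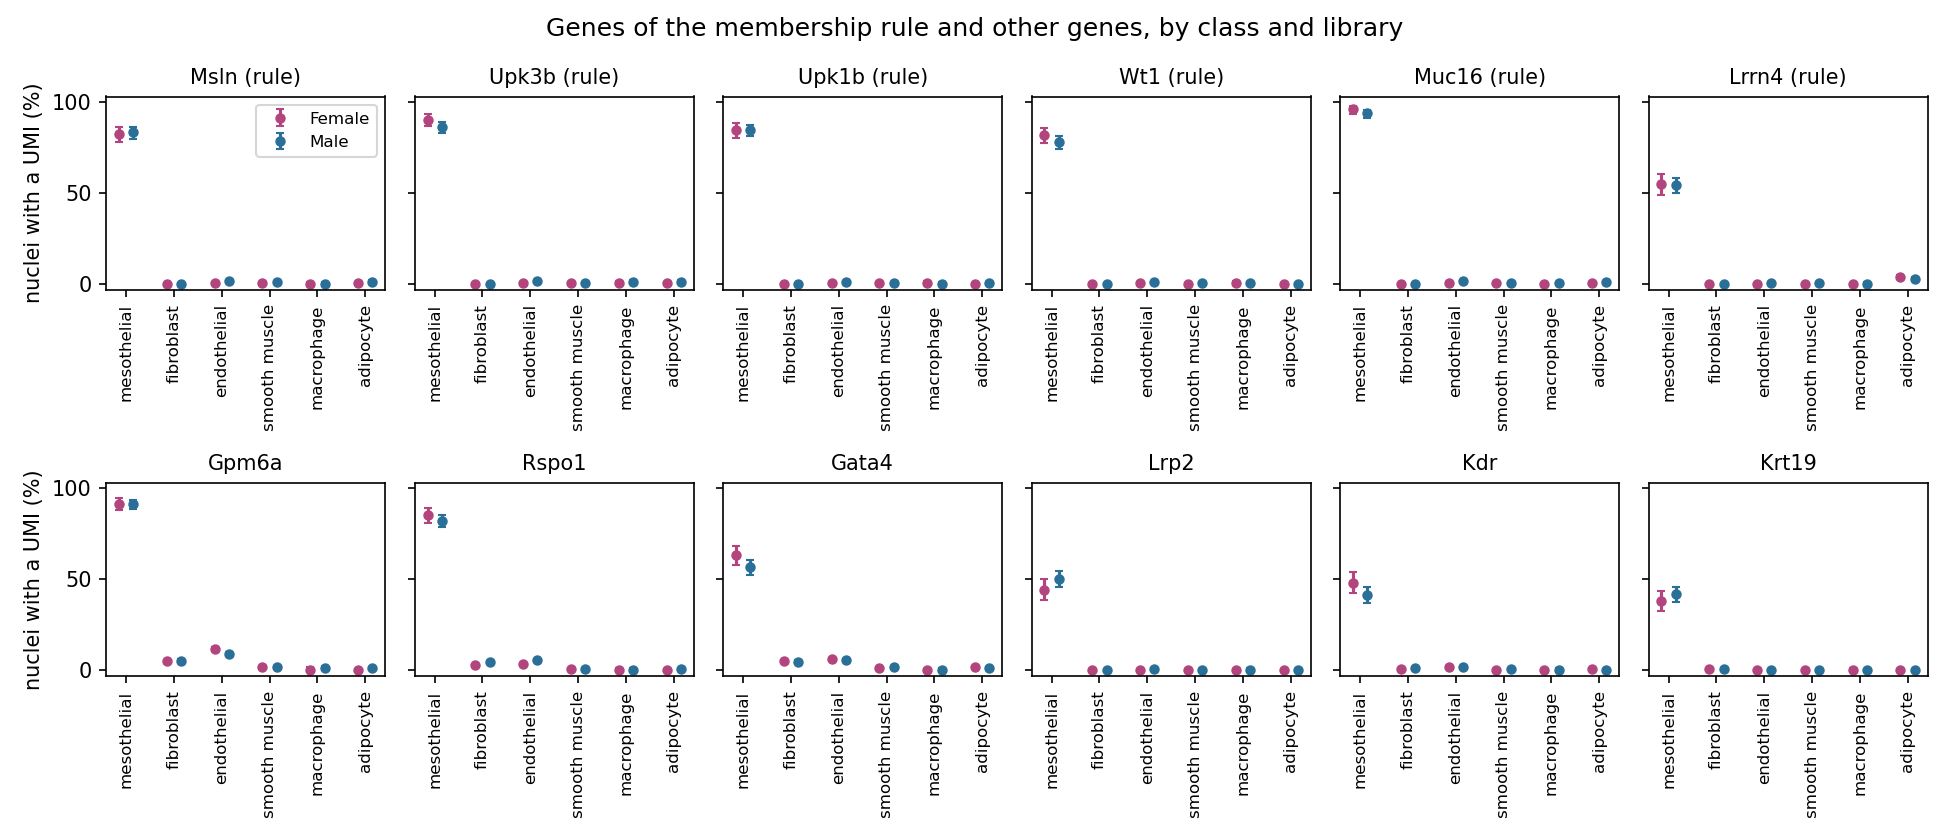
Share of nuclei with at least 1 UMI of each gene (y axis, percent) by class (x axis), for the Female and Male libraries; points are shares and bars 95% exact intervals. The 6 upper panels are genes of the rule; the 6 lower panels (Gpm6a, Rspo1, Gata4, Lrp2, Kdr and Krt19) were not used by it and also sit highest in the mesothelial class in both libraries.

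The exception was a group of 17 members, 4 Female (1.25%) and 13 Male (2.34%), with at least 3 UMIs of Scgb1a1, the secretoglobin of airway club cells. Each Female nucleus of the 17 held 40 to 158 Scgb1a1 UMIs and each Male nucleus 3 to 349. Outside them, Scgb1a1 gave 0 UMIs in 316 Female members and 10 UMIs in 543 Male members, never more than 1 per nucleus. The 17 nuclei met the rule through Msln, found in all of them, and Muc16, found in 3 of 4 Female and 12 of 13 Male nuclei. Upk1b was found in 2 Female and 7 Male of them, among these the 2 nuclei without Muc16. Rspo1 gave 5 UMIs in 1 Female nucleus of the 17 and 0 UMIs in the Male ones. All 17 had 0 UMIs of Upk3b, Wt1, Lrrn4, Gpm6a and Gata4. In their place stood other secretory airway genes: Bpifa1 with 346 Female and 1152 Male UMIs, Cyp2f2 with 224 and 484, Scgb3a1 with 91 and 737, and the lung and thyroid transcription factor Nkx2-1 with 4 and 12. These values go against the label mesothelial for the 17 nuclei, and results that rest on them are given with and without them.

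**Figure D2:**
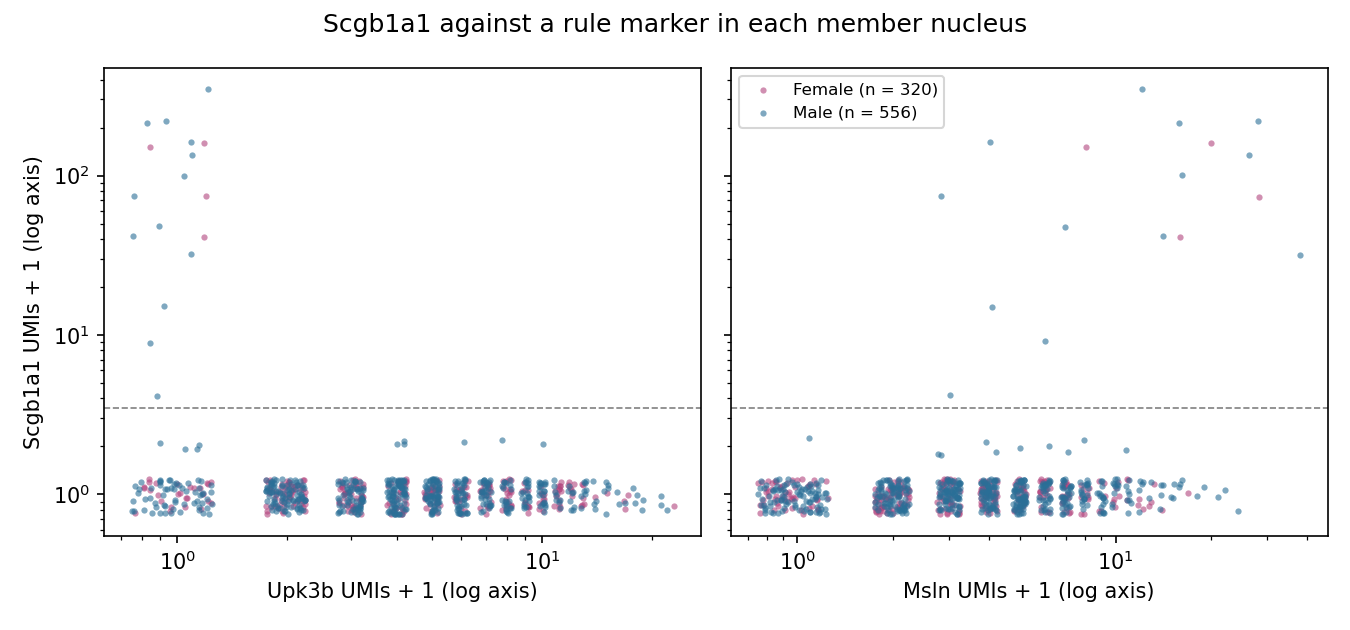
Scgb1a1 UMIs plus 1 (y axis, log scale) against Upk3b UMIs plus 1 (left) or Msln UMIs plus 1 (right, log scale) in each of the 320 Female and 556 Male members; points are nuclei, slightly scattered. The 17 nuclei above the dashed line at 3 or more Scgb1a1 UMIs have 0 Upk3b UMIs, and all of them have Msln UMIs.

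Some members also carried markers of other cells. At least 3 UMIs of the smooth muscle genes were present in 49 Female (15.3%) and 66 Male (11.9%) members, of the endothelial genes in 13 and 36, of macrophage genes in 9 and 17 and of adipocyte genes in 8 and 10. The doublet caller scrublet marked 29 Female (9.06%) and 49 Male (8.81%) members, against 4.99% and 7.28% of each whole library. Counting any of these together with the Scgb1a1 nuclei, 73 Female (22.8%) and 130 Male (23.4%) members were set apart in an alternative, which left 247 and 426. The fibroblast gene Pdgfra gave a UMI in 8 Female (2.5%) and 31 Male (5.58%) members, and no member was set apart for fibroblast genes. Of the barcode sequences, 4287 occurred in both libraries, among them those of 69 Female and 126 Male members, and 3 were mesothelial in both.

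To describe what the members express beyond the rule, their UMIs were compared with those of fibroblast nuclei, the other matrix-rich cells of the vessel's outer wall. A fibroblast nucleus had at least 2 UMIs of Pdgfra, Dcn and Col1a2, more than of the muscle genes, and none of the 6 mesothelial genes, and 2981 Female and 3278 Male nuclei met this. Low or 0 counts of other mesothelial genes in fibroblasts, and the fold bounds drawn from them, are therefore not independent of how fibroblasts were chosen. Their rule sets no limit on endothelial genes, and 598 of the Female and 831 of the Male fibroblasts also passed the endothelial gate. Results were therefore also computed with the 2315 and 2380 fibroblasts that passed no other gate. UMIs were summed per library and class and tested with edgeR's quasi-likelihood test with the library as a block, Benjamini-Hochberg adjusted at 0.05. The 8 sums in the fit come from 2 libraries, so p-values measure the spread between these libraries and not between animals. Levels are given as CPM, the UMIs of a gene scaled to the same total in every sum.

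Of 15199 features fitted, 2532 (16.7%) were higher and 3103 (20.4%) lower in mesothelial nuclei, and the median log2 fold change was -0.06. These shares are the background against which each list below is read. Every one of the called features had the same direction in both libraries. The lists hold genes of known biology but were chosen with earlier results of these data known. Their counts and medians are descriptions that carry no test of their own.

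**Figure D3:**
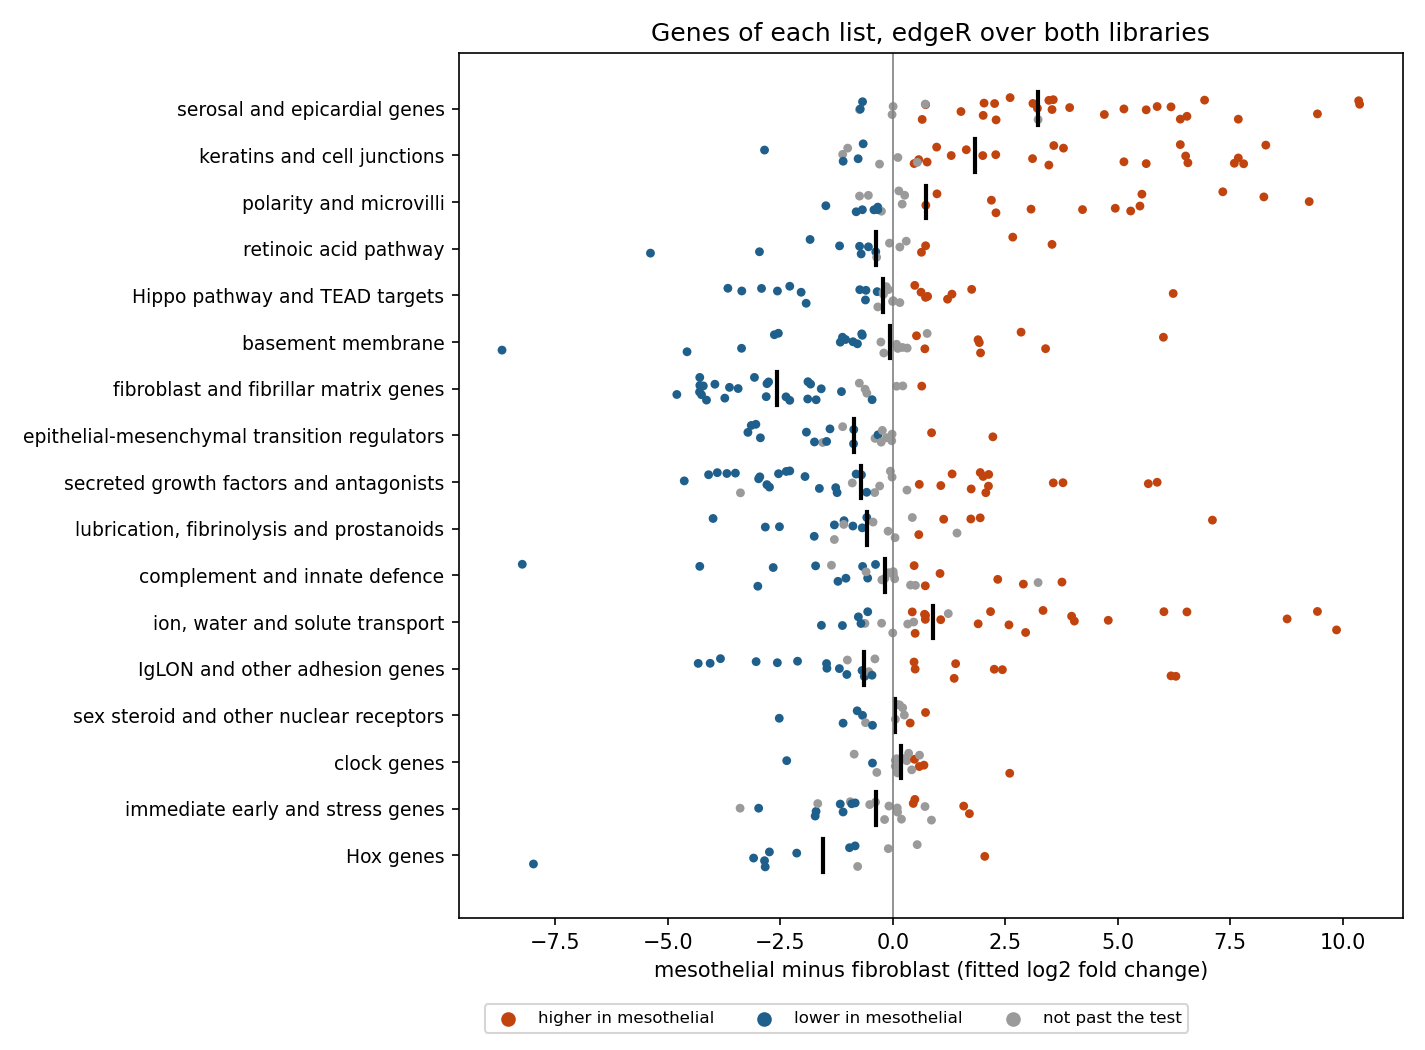
Fitted log2 fold change, mesothelial minus fibroblast (x axis), of each gene in 17 lists (rows), by edgeR over both libraries; each point is a gene, coloured by whether it passed an adjusted p of 0.05, and the black bar is the list's median. Medians run from 3.23 for serosal and epicardial genes to -2.57 for fibroblast and fibrillar matrix genes.

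Serosal and epicardial genes outside the rule were mostly higher: 26 of 33 fitted genes rose and 2 fell, with a median log2 fold change of 3.23. Gpm6a stood at 2025 CPM in Female and 1856 CPM in Male members against 26.9 and 27.2 CPM in fibroblasts, a log2 fold change of 6.19 (SE 0.22, adjusted p = 6.55e-07 by edgeR). Bnc1, which encodes the zinc finger factor basonuclin 1 of keratinocytes and mesothelium (chromosome 7, 81966672 to 81992292), stood at 178 and 148 CPM. Fibroblasts had 0 and 0.22 CPM of it, which gave a log2 fold change of 10.38 (SE 0.46, adjusted p = 1.53e-06 by edgeR). Rspo1, a secreted amplifier of Wnt signalling, stood at 659.5 and 657.9 CPM against 9.20 and 14.2 CPM (log2 fold change 5.88). In each of these genes both mesothelial sums lay far above both fibroblast sums, and the libraries differed little.

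The cardiac transcription factors were not alike. Gata4 stood at 397.2 and 334.3 CPM in members and 26.4 and 22.1 CPM in fibroblasts (log2 fold change 3.93, SE 0.24), and Gata5 at 56.9 and 54.5 CPM against 0.25 and 0.66 CPM (6.93, SE 0.43). Gata6 was at about the same level in both classes, with 260.4 and 235.3 CPM in members and 242.9 and 256.1 CPM in fibroblasts (log2 fold change 0.01, adjusted p = 0.98 by edgeR). Tbx18, an epicardial and mural cell factor, rose by a log2 of 2.61 (SE 0.08). Tcf21, an epicardial factor that marks future fibroblasts, was near its detection limit at 6.54 and 2.69 CPM in members and 4.19 and 4.39 CPM in fibroblasts, and the difference did not pass the test. Lrp2, the endocytic receptor megalin, stood at 246.7 and 317.4 CPM in members against 0.25 and 0.59 CPM (log2 fold change 9.44, SE 0.50). The 2 genes that fell were Nr2f2 (-0.67) and Medag (-0.72).

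Keratins and junction genes gave 21 of 30 fitted genes higher and 4 lower, with a median of 1.82. All 4 keratins of simple epithelia in the list rose. Krt7 stood at 157.7 and 154.7 CPM against 4.27 and 4.69 CPM, and Krt19 at 143.9 and 171.2 CPM against 2.14 and 1.68 CPM (log2 fold changes 5.14 and 6.39). Krt8 and Krt18, which pair with each other, had log2 fold changes of 7.68 and 3.47. Among cadherins, Cdh3 (P-cadherin) stood at 242.1 and 309.4 CPM against 0.82 and 0.95 CPM, and Cdh11, a mesenchymal cadherin, at 913.4 and 758.1 CPM against 108.7 and 87.4 CPM (log2 fold changes 8.29 and 3.11). Cdh1 (E-cadherin) was low, at 9.81 and 18.8 CPM, and 9 of its 15 Female and 40 of its 49 Male UMIs were in the Scgb1a1 nuclei. Tight junction genes included Cldn15 (log2 fold change 5.63) and cingulin, Cgn (7.8), and desmosomal genes Dsg2 (7.59) and envoplakin, Evpl (6.56). Jam2 fell by 2.85 on the log2 scale. Without the Scgb1a1 nuclei 20 genes of the list were higher and 5 lower.

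Of polarity and microvillus genes, 13 of 25 fitted were higher and 6 lower (median 0.74), and without the Scgb1a1 nuclei 11 of 23 and 5. Ezr, which encodes ezrin and links microvillar membranes to actin, stood at 647.7 and 564.6 CPM against 14.6 and 12.7 CPM (log2 fold change 5.50, SE 0.21). Its partner Slc9a3r1 rose by a log2 of 5.29 and the bundling protein espin, Espn, by 4.95, while moesin, Msn, an ezrin relative, fell by 0.81. The apical polarity genes Crb2 (9.26) and Pard6b (8.25) and the recycling motor Myo5b (7.34) were also higher. Ezr and Crb2 each overlap a protein-coding gene on the other strand, Sytl3 and Dennd1a, and the strand setting of the counting is not given in the sources used here.

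Transport genes were higher in 19 of 30 and lower in 5 (median 0.90). The potassium channel subunit Kcnd2 (chromosome 6, 21215503 to 21729805) stood at 2512 and 2676 CPM in members against 5.50 and 6.66 CPM in fibroblasts, a log2 fold change of 8.77 (SE 0.36, adjusted p = 1.075e-06 by edgeR). A UMI of Kcnd2 was found in 89.1% of Female and 82.2% of Male members, and in 1.04% and 1.25% of fibroblasts. The chloride channels Cftr and Ano1 rose as well: Cftr stood at 110.6 and 116.3 CPM against 0.08 and 0.15 CPM (log2 fold change 9.87), and Ano1 at 1912 and 1431 CPM against 34.5 and 18.3 CPM (6.03). The water channel Aqp1 stood at 666.1 and 627.2 CPM against 87.1 and 138.8 CPM (2.58). The sodium channel subunit Scnn1a (4.04), the sodium pump subunit Atp1b1 (2.95), the monocarboxylate carrier Slc16a1 (4.79), the zinc carrier Slc39a8 (6.54) and the mechanically gated channel Piezo1 (2.17) moved the same way. Slc26a3, an apical chloride and bicarbonate exchanger named by its size of change and not in the list, stood at 317.3 and 258.3 CPM against 0.41 and 0.22 CPM (log2 fold change 9.83, SE 0.24, adjusted p = 2.95e-07 by edgeR).

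Of fibroblast and fibrillar matrix genes, 24 of 30 fell and 1 rose (median -2.57). Fibroblasts were chosen by Pdgfra, Dcn and Col1a2, which are not counted here, and the list is not independent of that choice. Pi16, a marker of adventitial fibroblasts, stood at 49.7 and 172.3 CPM in members against 1916 and 2198 CPM, and Lum at 4.58 and 3.84 CPM against 90.3 and 63.5 CPM (log2 fold changes -4.29 and -4.14). Col1a1 stood at 30.8 and 56.8 CPM against 335.3 and 307.7 CPM (-2.81). Members nevertheless held fibrillar matrix transcripts: Eln stood at 1310 and 1479 CPM against 1625 and 2307 CPM, and Col3a1 at 611.1 and 697.8 CPM against 433.6 and 421.4 CPM. Eln (log2 fold change -0.46) and Col3a1 (0.64) passed the test but no longer did against fibroblasts that passed no other gate (-0.01 and 0.20). Fbln1 did not differ beyond the test's threshold (0.22, adjusted p = 0.19 by edgeR). The summed list stood at 4233 Female and 5200 Male CPM in members and at 20630 and 21950 CPM in fibroblasts. Endothelial nuclei had 6463 and 6771 CPM, smooth muscle nuclei 8870 and 10060 CPM, adipocytes 4242 and 5393 CPM and macrophages 1378 and 1083 CPM. The part of RNA from other cells in the members' values was not tested.

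Basement membrane genes divided by chain, with 8 of 28 higher and 12 lower (median -0.06). Fras1, a large basement membrane protein of embryonic epithelia, stood at 1146 and 952.7 CPM against 19.9 and 13.1 CPM (log2 fold change 6.02, SE 0.30). The epithelial laminin chain Lama5 (2.85) was higher. Lama2, the mesenchymal and muscle chain, stood at 42.5 and 74.5 CPM against 1565 and 1344 CPM (-4.57, SE 0.23), and Nid1 (-3.36) and Col4a1 (-0.79) were also lower. Frem1 gave 0 UMIs in members, at least 4.85-fold lower than in fibroblasts when 3 counts over both libraries are taken as the limit of a count of 0.

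Secreted growth factors and their antagonists gave 13 of 39 higher and 19 lower (median -0.70). Higher were Wnt4 (33.4 and 41.1 CPM against 0.58 and 0.88 CPM, log2 fold change 5.68), Bmp5 (3.78), Fgf9 (3.57), an epicardial signal to heart muscle, Fgf18 (2.07), Sema3d (2.01) and the Axl ligand Gas6 (1.07). Its receptor Axl, in another list, fell by 2.92 on the log2 scale. Lower were Cxcl12 (-3.90) and Fgf10 (-4.64). The guidance cue Slit3 was high in both classes, at 3255 and 3706 CPM in members and 3552 and 3579 CPM in fibroblasts, with a log2 fold change of -0.02. Bmp4 fell by 1.63 against all fibroblasts and had a log2 fold change of 0.17 (adjusted p = 0.47 by edgeR) against fibroblasts that passed no other gate. Of regulators of epithelial-mesenchymal transition, 2 of 22 were higher, among them Tgfb2 (658.2 and 485.9 CPM against 132.0 and 114.6 CPM, log2 fold change 2.23), and 11 were lower, among them Zeb2 (-3.04) and Prrx1 (-3.22), with a median of -0.87.

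In the retinoic acid pathway 4 of 16 fitted genes were higher and 8 lower (median -0.37). Aldh1a2, the main retinoic acid synthase of the epicardium, stood at 313.4 and 261.8 CPM against 33.5 and 18.1 CPM (log2 fold change 3.54, SE 0.23), and Aldh1a1 rose by 0.73. The third synthase gene, Aldh1a3 (-5.39), the receptor Rarb (-1.18) and the degrading enzyme Cyp26b1 (-2.96) were lower. In the Hippo pathway and its TEAD targets, 8 of 27 were higher and 11 lower (median -0.21). The upstream scaffold Wwc1 stood at 785.8 and 593.8 CPM against 10.02 and 8.49 CPM (log2 fold change 6.23). The coactivator Yap1 did not pass the test (0.16, adjusted p = 0.29 by edgeR), and its paralogue Wwtr1, at -0.35 against all fibroblasts, had a log2 fold change of 0.18 (adjusted p = 0.23) against fibroblasts that passed no other gate. The target genes Cyr61 (-2.04) and Ctgf (-2.29) and the atypical cadherin Dchs1 (-3.36) were lower; against fibroblasts that passed no other gate the value of Cyr61 was -0.44.

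Genes of lubrication, fibrinolysis and prostanoids gave 5 of 21 higher and 9 lower (median -0.58). Hpgd, which inactivates prostaglandins, stood at 485.5 and 569.6 CPM against 3.53 and 4.47 CPM (log2 fold change 7.11, SE 0.33). Of the hyaluronan synthases, Has1 rose by 1.94 and Has2 fell by 2.83 on the log2 scale. Prg4, the joint lubricant lubricin, did not pass the test (-0.10). Complement and innate defence genes gave 6 of 27 higher and 10 lower (median -0.18), and 8 and 7 against fibroblasts that passed no other gate. C2 (2.90) and the cytokine Il18 (2.33) were higher, and C7 (-4.29) lower. The central component C3 rose by 1.05 (SE 0.21, adjusted p = 0.0051 by edgeR), and did not pass without the library block (1.17). Its level differed between the libraries.

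Adhesion genes gave 8 of 25 higher and 13 lower (median -0.63), or 9 and 8 against fibroblasts that passed no other gate. Cadm2 stood at 543.7 and 621.0 CPM against 8.63 and 6.44 CPM (log2 fold change 6.29), while the IgLON genes Opcml (68.0 and 154.3 CPM against 2746 and 1736 CPM, -4.33) and Lsamp (-3.83) were lower. Hox genes, which record position along the body axis, gave 1 of 12 higher and 8 lower (median -1.55). Against fibroblasts that passed no other gate, 1 of 10 was higher and 5 were lower (median -0.74). The 8 lower against all fibroblasts include Hoxc4, which had 0 UMIs in members, at least 2.93-fold lower, and lost its call without the library block. Nuclear receptors gave 2 of 13 higher and 5 lower (median 0.06), clock genes 4 of 18 and 2 (0.19), immediate early and stress genes 4 of 23 and 7 (-0.38), and of 20 cell cycle genes 5 could be fitted, with 1 higher.

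By the rule for named genes, the 20 largest rises included genes that the lists did not hold. Ano9, a membrane scramblase relative, stood at 35.3 and 23.0 CPM with 0 UMIs in fibroblasts, at least 237.5-fold higher. The Wnt ligand Wnt7b (chromosome 15, 85535437 to 85582473; 27.5 and 18.4 CPM, at least 187.5-fold), the endocytic adaptor Epn3 (at least 191.7-fold), the folate receptor Folr1 (at least 141.7-fold), the amino acid carrier Slc6a14 (at least 139.6-fold), Rpp25 (at least 135.4-fold), the phosphatase gene Ppm1n (at least 106.2-fold) and the homeobox gene Nkx6-2 (at least 108.3-fold) likewise had 0 UMIs in fibroblasts. Lrrc31 stood at 142.0 and 115.1 CPM against 0 and 0.07 CPM (log2 fold change 11.44), the sulfotransferase gene Chst4 at 193.7 and 221.9 CPM against 0.25 and 0.07 CPM (10.36), Pcnx2 at 497.3 and 360.0 CPM against 0.58 and 0.29 CPM (9.97) and Prr15l at 42.5 and 67.9 CPM against 0 and 0.07 CPM (10.28). Another 5, Gabrp, Sec14l3, Itprid1, Reg3g and Dmbt1, owed their rank to the Scgb1a1 nuclei. Those nuclei held 32 Female and 114 Male UMIs of Gabrp, 32 and 77 of Sec14l3, 128 and 277 of Itprid1 and 26 and 179 of Reg3g. The 10 largest falls were genes with 0 UMIs in members: Prtg (at least 20.4-fold lower), Tll2 (12.1), Brinp3 (10.4), Epyc (9.60), Wasf3 (9.33), Artn (9.23), Cd80 (8.43), Ptchd1 (8), Minar1 (7.68) and Cxcl2 (7.31). Folr1, Nkx6-2 and Dmbt1 each overlap a protein-coding gene on the other strand (Anapc15, Inpp5a and Fgfr2). Tll2 rested mostly on the Male fibroblasts, with 15.7 CPM against 0.99 CPM in Female ones.

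Some genes usually read as markers of other cells were detected in the members. Kdr, the main VEGF receptor of endothelium (chromosome 5, 75932827 to 75978458), stood at 236.9 and 194.6 CPM in members, against 1.89 and 4.39 CPM in fibroblasts and 10.5 and 8.89 CPM in endothelial nuclei of the same libraries. A UMI of Kdr was present in 48.1% of Female and 41.4% of Male members and in 2.02% and 1.98% of endothelial nuclei. The rise over fibroblasts was 6.10 on the log2 scale (SE 0.40, adjusted p = 9.56e-06 by edgeR). It was the single gene of 7 in the endothelial list that rose, while 6 fell, such as Flt1 (-2.37), and the members' rule sets a limit on endothelial genes that the fibroblasts' does not. The summed endothelial list was 385.4 and 365.4 CPM in members, with Kdr included, and 2802 and 2628 CPM in endothelial nuclei. Against fibroblasts that passed no other gate, 1 gene of this list was higher and 3 were lower.

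Csf1r, a macrophage growth factor receptor, gave a UMI in 13.8% of Female and 21.2% of Male members, against 79.6% and 80.1% of macrophages and 1.68% and 1.25% of fibroblasts. The macrophage list gave 3 of 10 higher and 2 lower against all fibroblasts, but 2 and 6 after mixed nuclei, called doublets and Scgb1a1 nuclei were left out of the members. That removal took out members with 3 or more UMIs of macrophage or adipocyte genes and left the fibroblasts as they were, so lower calls for these genes follow from the selection. The summed macrophage list was at 461.3 and 367.7 CPM in members and 17290 and 16860 CPM in macrophages. Myl7, the atrial myosin light chain, stood at 85.7 and 61.0 CPM in members against 0.08 and 0.15 CPM in fibroblasts (log2 fold change 9.22), with a UMI in 24.1% and 16.6% of members. The heart muscle list gave 4 of 5 higher and none lower, or 2 of 4 higher once mixed members were left out. Its summed level was 141.3 and 115.5 CPM in members, 29.4 and 30.7 CPM in fibroblasts and 800.8 and 917.9 CPM in smooth muscle nuclei, and the part of muscle RNA in the members was not tested. Adipocyte genes gave 1 of 10 higher, but 8 of 9 higher against fibroblasts that passed no other gate and 9 lower once mixed members were left out, by the same selection. The smooth muscle list gave 1 of 7 higher and 1 lower, and 0 and 3 without mixed members, which were chosen in part by smooth muscle genes. The lymphatic list gave 1 of 5 higher (Flt4, 1.99), and the neural crest and glia list 1 of 4 higher and 2 lower. In the list of airway, thymic and other epithelium, 2 of 12 genes could be fitted, Scgb1a1 and Scgb3a2, and both were higher through the Scgb1a1 nuclei: the summed level was 318.0 and 594.5 CPM in members and at most 10.7 CPM in the other classes.

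The reporter transcripts separated the members from fibroblasts. GFP gave 52 UMIs and tdTomato 199 in Female members and 125 and 424 in Male members, so that GFP made up 20.7% (95% exact interval 15.9 to 26.3) and 22.8% (19.3 to 26.5) of reporter UMIs. In fibroblasts the shares were 44.8% and 41.7%, in smooth muscle 54.7% and 53.7%, in endothelial nuclei 16.9% and 16.8% and in macrophages 22.9% and 19.0%. The members' intervals reached those of macrophages in both libraries and did not reach those of fibroblasts or smooth muscle. GFP was lower in members than in fibroblasts by 0.98 on the log2 scale (SE 0.14, adjusted p = 9.1e-04 by edgeR). The rise of tdTomato was smaller, 0.44 (SE 0.11, adjusted p = 0.017), and did not pass without the library block (0.44, adjusted p = 0.056). Against fibroblasts that passed no other gate it was 1.501.

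Counted by nucleus, 17 Female members had GFP UMIs alone, 86 tdTomato alone and 23 both, and the Male members 43, 181 and 53. GFP-only nuclei were 16.5% (9.92 to 25.1) and 19.2% (14.3 to 24.97) of members with a single reporter, against 46.4% and 44.6% of fibroblasts. GFP UMIs were also found in 11.1% and 9.24% of macrophages, a lineage that does not come from the neural crest, at medians of 2294.5 and 2579 UMIs, and in 12.5% and 17.3% of members. Among nuclei with a single reporter, 22.7% and 17.8% of macrophages had GFP alone. The members' shares lie within the counting error of those of macrophages, so no share of neural crest origin is read from them.

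**Figure D4:**
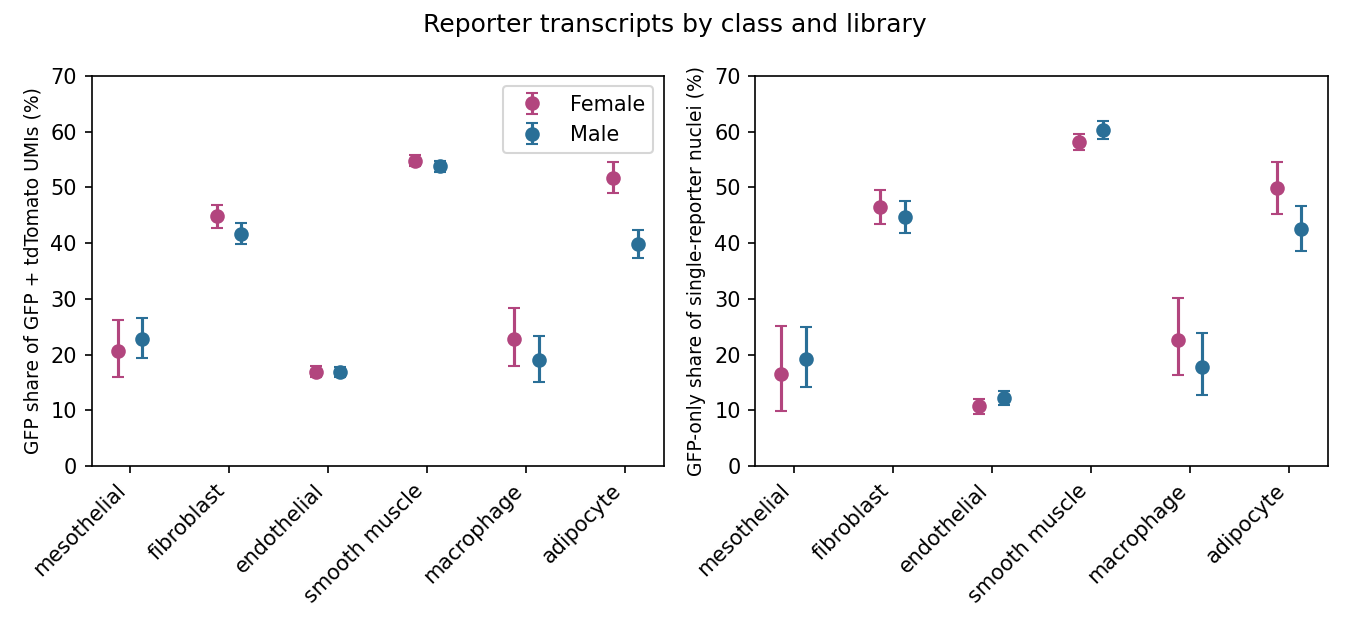
Left, GFP share of all GFP and tdTomato UMIs (y axis, percent) by class; right, share of GFP-only nuclei among nuclei with a single reporter (y axis, percent). Points are the Female and Male libraries and bars 95% exact intervals; mesothelial values lie between 16.5% and 22.8%, below those of fibroblasts (41.7% to 46.4%).

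The members were not uniform among themselves. Clustered alone, they gave 12 groups of 15 to 184 nuclei, which are described by the genes that led them and are not cell types. A group of 16 nuclei held Scgb1a1 nuclei alone. Another 4, led by adipocyte (Car3, Pparg), endothelial (Ptprb, Pecam1), smooth muscle (Itga8, Myocd) and fibroblast genes (Opcml, Pi16), had 15, 27, 32 and 27 nuclei with medians of 12155, 6925, 7654 and 6010 UMIs, deeper than the members as a whole. The 1 remaining Scgb1a1 nucleus was in the group led by adipocyte genes. Another of 141 nuclei was shallow (median 1929 UMIs) and led by Mir6236 and Lars2. Among the rest, 184 nuclei were led by Clstn2, Cplx2 and Tgfb2, 135 by Unc13c and Pla2r1, 125 by Adam23, Il18r1, C3 and Lcn2, 74 by Pde10a, 53 by Acss3 and Nid2 and 47 by Ccbe1, Enpp2 and Col6a6. The number of groups was 7 at a lower and 15 at a higher clustering resolution.

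The Female and Male members could be compared by the size of a difference but not tested, because each sex has a single library. Of 8033 genes with at least 50 UMIs over both sums and 20 CPM in either, 38 (0.473%) were 2-fold or more higher in the Female sum and 66 (0.822%) in the Male one, on CPM with 5 added, and the median log2 ratio was 0.00. As the check of the labels, the X-inactivation transcript Xist gave 1334 Female and 2 Male UMIs, and the Y-linked genes Uty, Ddx3y, Eif2s3y and Kdm5d 0, 1, 0 and 0 Female and 377, 186, 162 and 114 Male UMIs. No serosal or epicardial gene of 31 that passed these filters was 2-fold apart, and their median log2 ratio was 0.08.

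**Figure D5:**
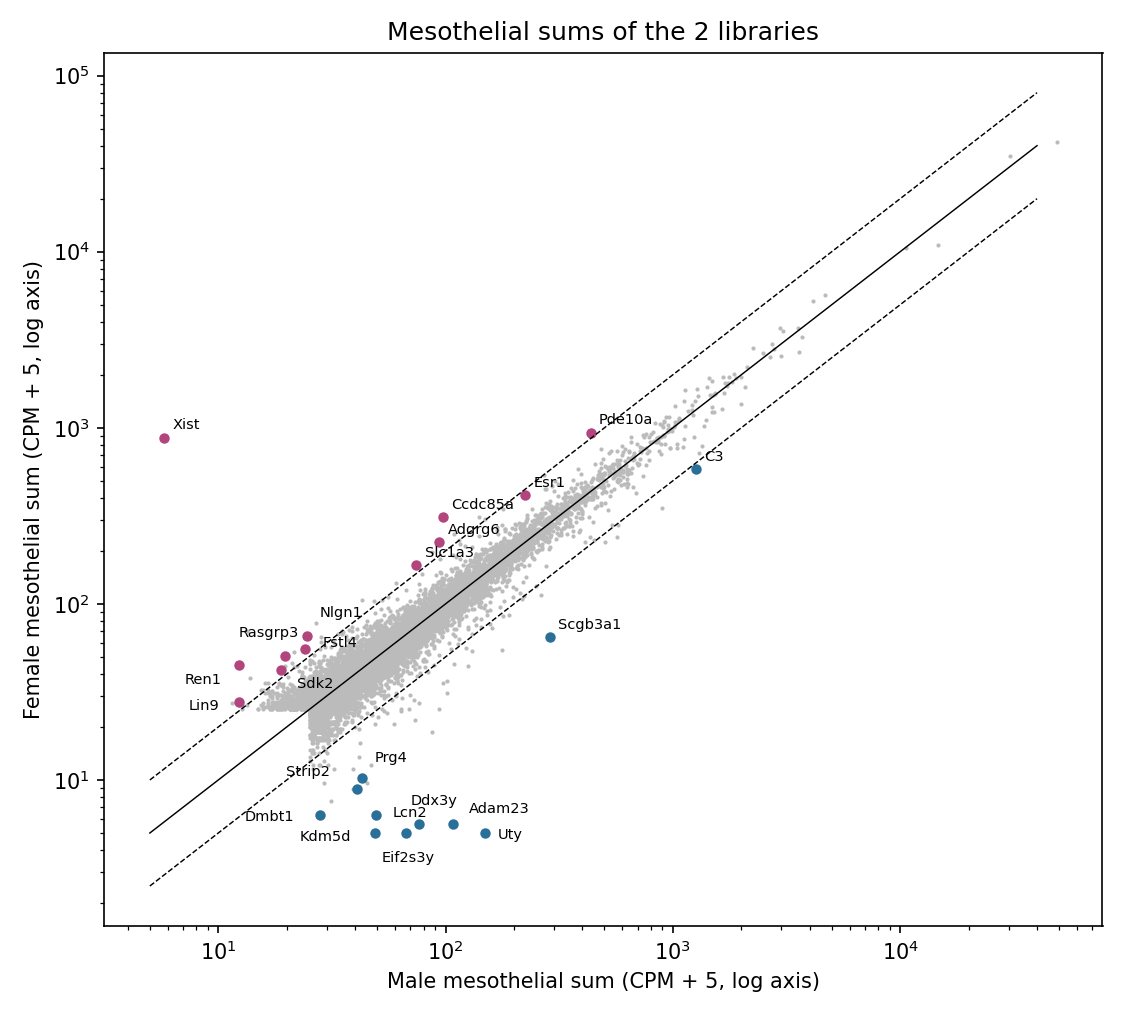
Level of each gene in the Female (y axis) against the Male (x axis) mesothelial sum, as CPM plus 5 on log axes; each point is a gene, the solid line marks equal levels and the dashed lines 2-fold. Named genes are coloured by the higher library; Adam23, at 0.65 Female and 102.5 Male CPM, lies among the Y-linked genes.

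Beside Xist, the named genes higher in the Female sum were led by Ren1 and Ccdc85a. Ren1, which encodes renin, gave 61 Female UMIs in 22 nuclei and 19 Male UMIs in 12 nuclei, 39.9 against 7.29 CPM, a ratio of 5.47 (95% exact counting interval 3.23 to 9.70). Fibroblasts had 2.46 and 2.64 CPM. Ccdc85a stood at 305.6 against 92.5 CPM (ratio 3.30, 2.82 to 3.88) and the adhesion G protein-coupled receptor gene Adgrg6 at 218.5 against 88.7 CPM (2.47, 2.08 to 2.93). Nlgn1, Rasgrp3, Fstl4 and Sdk2 had log2 ratios of 1.42, 1.38, 1.195 and 1.17. Lin9 (1.18) and the glutamate carrier Slc1a3 (1.16) had 0.56 and 0.52 when mixed and called nuclei were left out. The oestrogen receptor gene Esr1 stood at 410.9 against 219.5 CPM, under 2-fold.

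Higher in the Male sum, beside the Y-linked genes, were Adam23, Lcn2, Strip2, Scgb3a1 and Dmbt1. Adam23, a membrane protein of the disintegrin family (chromosome 1, 63445891 to 63596276), gave 1 UMI in the Female members and 267 UMIs in 70 Male nuclei. Fibroblasts had it at 29.7 Female and 38.4 Male CPM. Lcn2, the iron-siderophore binding lipocalin, gave 2 Female UMIs and 116 Male UMIs in 52 nuclei, 1.31 against 44.5 CPM. Without the Scgb1a1 nuclei its log2 ratio went from -2.97 to -2.69, while those of Scgb3a1 and Dmbt1 went from -2.16 and -2.15 to -0.11 and -0.03. Strip2 (-2.19) changed by under 0.1 without those nuclei.

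Of 21 complement and innate defence genes that passed, 4 were 2-fold higher in the Male sum and none in the Female sum, and the median log2 ratio was -0.29. The 4 were C3, Cfb, C7 and Lcn2. C3 stood at 578.4 Female and 1253 Male CPM (884 and 3264 UMIs, ratio 0.462, 0.428 to 0.497), with 403.2 and 428.9 CPM in fibroblasts. The members of the libraries were spread differently over the groups found by clustering, which C3 helped to define. The group led by Adam23 and C3 (2502 CPM of C3) held 23 Female and 102 Male nuclei, and the group led by Clstn2 (495.3 CPM) 106 and 78. The shallow group led by Mir6236 (1668 CPM) held 31 and 110, that led by Ccbe1 (1833 CPM) 12 and 35 and that led by Acss3 (719.1 CPM) 9 and 44. Nearly even were those led by Pde10a (708.4 CPM), with 38 and 36, and by Unc13c (647.6 CPM), with 68 and 67. A difference in the make-up of the members and one in the level within them cannot be told apart here. Cfb stood at 19.6 against 48.4 CPM and C1s1 at 76.6 against 138.2 CPM, the latter under 2-fold. C7 was at 13.7 against 82.5 CPM, but fibroblasts of the same libraries had 400.5 and 1276 CPM. C4b, at 121.0 against 244.5 CPM, was just under 2-fold with 5 CPM added. It has a near-identical copy, C4a, and also differed in fibroblasts (74.0 and 202.3 CPM). Prg4 stood at 5.23 against 38.0 CPM in members and 13.5 against 39.0 CPM in fibroblasts, and it overlaps Tpr. Fibrillar matrix genes gave 3 of 23 higher in the Male sum (median -0.44), lubrication genes 2 of 11, and nuclear receptors and adipocyte genes 2 of 12 and 2 of 7 higher in the Female sum. The group of members led by fibroblast genes (Opcml, Pi16) held 6 Female and 21 Male nuclei, and its part in the fibrillar values was not tested. The summed adipocyte list stood at 598 Female and 345.1 Male CPM in members and at 11320 and 12240 CPM in adipocytes. Pparg is in both the adipocyte and the nuclear receptor list. The group of members led by adipocyte genes held 8 Female and 7 Male nuclei, and its part in these 2 lists was not tested.

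Adam23 and C3 were high in the same Male nuclei. The 70 Male members with an Adam23 UMI had a median of 4968 UMIs and the other 486 a median of 4017. C3 stood at 2396 CPM in the former and 1048 CPM in the latter, Lcn2 at 128.6 and 29.4 CPM, Prg4 at 133.7 and 20.8 CPM, Cfb at 88.3 and 41.2 CPM and C1s1 at 285.0 and 111.8 CPM. The rule genes Msln (761.7 and 782.3 CPM) and Wt1 (676.0 and 659.6 CPM) were alike in both, and Upk3b was lower in nuclei with Adam23 (620.5 and 887.3 CPM). C3 stood at 1048 CPM in the 486 Male nuclei without Adam23 and at 576.1 CPM in the 319 such Female nuclei. In the group led by Adam23 and C3, 35.2% of the nuclei had an Adam23 UMI. The split therefore leaves most of that group among the nuclei without Adam23 and does not separate make-up from level. The Male nuclei come from 1 library and were split by a gene seen to be high, so the values carry no test.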

How the data were processed

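The deposited matrices hold raw UMI counts per gene and barcode for 1 Female and 1 Male library, per the file headers from Cell Ranger 7.0.0. The submitters' processing notes name STAR, Cell Ranger, Seurat 4.4.0 and the build GRCm38. No source used here gives the annotation, strand or intron settings. Of 54754 features, GENCODE M21 placed 54723 by identifier.

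Members, gene lists, rules and alternatives were chosen with earlier results of these data known. Nuclei were gated on raw UMIs as described, doublets were called per library with scrublet (scanpy 1.11.5, expected rate 0.08), and UMIs were summed per library and class. Sums of mesothelial, fibroblast, endothelial and smooth muscle nuclei were tested with edgeR 4.0.16 (R 4.3.3; quasi-likelihood, TMM scaling, library as a block, at least 50 UMIs over the mesothelial and fibroblast sums, 3 residual degrees of freedom). The SE is the log2 fold change over the root of the F statistic. The library block pairs classes of 1 pool, by the labels. DESeq2 1.42.0 was an alternative. Genes of either gate's rule were left out of counts. The test was also run on simulated counts with the same spread set for every gene. These do not copy the spread between the real libraries, so no support for the calls is drawn from them.

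Named were the 20 largest rises and 10 largest falls past the test with at least 50 UMIs in the class where the gene is high, and the 10 largest ratios each way between the libraries. Left out were models without a proper symbol and, between libraries, 17 Female and 6 Male genes whose CPM was below 0.1 of that in another class, as free RNA would give. Other genes come from 26 lists. Some genes that the rule takes are left out here. C1s1, C4b and Adam23-positive nuclei were picked after their values were seen. Of 167 genes looked up, 41 overlap another model on the same strand. Sub-clusters used 2000 variable genes, 20 components, 15 neighbours and Leiden resolution 0.8 (igraph 0.11.9).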

Additional observations from a re-analysis of the deposited data

Results flagged for a closer look

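Adam23 was 1 gene whose difference between mesothelial and fibroblast nuclei had opposite directions in the libraries. The log2 ratio, on TMM-scaled totals with a small count added to each sum, was -4.91 for Female and 1.45 for Male nuclei. The difference between the libraries was not tested, since each sex has 1 library. Female members held 1 Adam23 UMI in 320 nuclei and Male members 267 UMIs in 70 of 556 nuclei, and no Adam23 UMI fell in the group of 184 members led by Clstn2.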

How the results depend on the processing

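Of the 142 genes read between mesothelial and fibroblast nuclei, 2406 values under the alternatives counted as the same, 29 lost and 7 gained the call, 46 moved, and 2 reversed. The 2 were against fibroblasts that passed no other gate, where Wwtr1 had 0.18 and Bmp4 0.17. Under a tested alternative, the same means an unchanged direction and side of the threshold. Values with 1 library left out carry no test and were set against the main value by size, and all 46 that moved are of this kind. Of the values of the 20 genes named between the sexes, 197 stayed within the counting error, 31 moved and 0 reversed. Those that moved were mostly genes with few or no UMIs in 1 library under another pseudocount: Adam23 had -5.97 with 1 CPM and -2.57 with 20 CPM added, and Lcn2 -4.30 and -1.60. Ren1 had 2.55 without barcodes found in both libraries, and Fstl4 1.77 without the Scgb1a1 nuclei. Thinning to 1000 UMIs gave 1386 genes higher and 1823 lower of 11189 fitted, with fewer UMIs tested; 1304 and 1732 were among the main calls. Without the replicate block, 2354 were higher and 2898 lower, and tdTomato (0.44) no longer passed. With one library left out, the fold change of the remaining one, with no test, was -1.26 to -0.78 for GFP and 0.36 to 0.50 for tdTomato, and all 2532 and 3103 calls kept their sign. Between the sexes, adding 1 in place of 5 CPM gave 68 genes higher in Female and 101 in Male members, and adding 20 gave 13 and 35. Requiring 100 UMIs and 50 CPM gave 22 and 39, thinning gave 14 and 42 (3 and 16 shared with the main counts), and leaving out called doublets gave 100 in the Male sum. The share of mesothelial nuclei stayed lower in the Female library, at -1.045 to -0.753 percentage points. Alternatives chosen after seeing the data left out fibroblasts passing another gate, Scgb1a1 nuclei, or all mixed nuclei; the last gave 2676 genes higher and 3102 lower, and 31 and 76 between the sexes, of which 13 and 42 were shared. Depth limits genes under about 50 UMIs, which were not fitted.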

Other observations

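Several genes that differed between the Female and Male members differed the same way in fibroblasts of the same libraries. They were picked after their values were seen. Zbtb16 stood at 347.4 Female and 887.0 Male CPM in members and at 385.1 and 1338 CPM in fibroblasts. Fkbp5, a chaperone gene known to be induced by glucocorticoids, stood at 236.2 and 562.7 CPM in members and at 200.3 and 540.4 CPM in fibroblasts. The metallothionein gene Mt1 stood at 19.0 and 50.3 CPM in members and at 28.0 and 67.6 CPM in fibroblasts.

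Other genes were apart in members and closer together, or the other way, in fibroblasts. Nxph1, which encodes a secreted neurexin ligand, stood at 275.5 Female and 568.1 Male CPM in members and at 68.4 and 51.5 CPM in fibroblasts. Gpx3, a secreted glutathione peroxidase, stood at 218.5 and 497.1 CPM in members and at 104.7 and 145.9 CPM in fibroblasts. It was also among the leading genes of the shallow group of members, which held 31 Female and 110 Male nuclei. The laminin chain gene Lamc3 stood at 7.20 and 42.2 CPM in members and at 56.2 and 61.5 CPM in fibroblasts. Tenm4, a teneurin adhesion gene, stood at 304.9 Female and 135.1 Male CPM in members and at 49.8 and 50.7 CPM in fibroblasts, and Pde10a, a cyclic nucleotide phosphodiesterase gene, at 932.4 and 429.9 CPM in members and at 81.7 and 125.5 CPM in fibroblasts. Whether these differences between 1 Female and 1 Male library belong to sex was not tested.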
